A study of Mus musculus with 9 samples.

Results

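The Ifi200 genes, also called PYHIN genes, were followed in RNA sequencing of cells sorted from mouse brain. Members were all rows of the normalized count table whose symbol lies between Ifi202 and Ifi214 and whose mean over the 9 libraries was at least 10. Of 11 such symbols 10 qualified, among 23134 rows in all: Ifi203, Ifi204, Ifi205, Ifi206, Ifi207, Ifi208, Ifi209, Ifi211, Ifi213 and the pseudogene Ifi203-ps. The member nearest to the threshold was Ifi205, with a mean of 31.1, and Ifi214 fell outside with a mean of 6.67. Ifi205 qualified through its LPS libraries alone, since its mean in saline was 3.78.

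The cells were taken by magnetic beads against CD11b, a surface protein of microglia that monocytes, neutrophils and NK cells carry too, after astrocytes had been removed on ACSA-2 beads. The mice were 2 to 3 months old, and cortex and hippocampus were dissociated 72 hours after an injection into the peritoneum. There were 3 groups of 3 libraries: control mice given saline, control mice given 5 mg/kg lipopolysaccharide (LPS, a bacterial cell wall component that sets off inflammation), and mice with an astrocyte-specific conditional knockout (cKO) of the chromatin remodeller Chd8 given the same LPS. Neither strain nor Cre driver is named in the labels, and the labels do not tie each library to its own mouse. All p-values therefore describe the spread among these libraries, which may be technical. The titles of all 9 libraries hold the word saline. Those of the control LPS libraries also say control LPS, whereas those of the cKO libraries say cKO saline. The genotype and treatment labels and the column names of both groups say LPS, which was used. Control LPS library 1 stood apart by astrocyte transcripts, with Slc1a2, an astrocyte glutamate transporter gene, at 34073 normalized counts against at most 445 in the other 8 libraries. Values without it are given below where they bear on a result.

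PYHIN proteins typically pair an N-terminal pyrin domain, which binds the pyrin domains of other proteins, with a C-terminal HIN domain that binds double-stranded DNA without regard to its sequence. Aim2 is the best known of them: it senses DNA in the cytosol and assembles an inflammasome through the adaptor Pycard. The Ifi200 genes are named for their induction by interferon, and in mouse they form a cluster of tandem copies. Ifi204, the gene of p204, is the mouse gene most often set beside human IFI16, which passes a DNA signal to the adaptor Sting1.

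In RefSeq (GRCm38.p6, the assembly of mm10) the 14 PYHIN genes considered, Aim2, Mndal and Ifi202b included, occupied chr1:173349547-174031755, a stretch of 682 kb. Expression of Ifi202b was not analysed here. Of the 10 members, Ifi204 and Ifi203-ps had no RefSeq promoter window and were not searched. For the other 8, windows from 250 bases before to 50 bases after an annotated start were found. They were searched on both strands for GAAA, any 2 bases and GAAA again, the core of the interferon-stimulated response element (ISRE), a promoter element of many interferon-induced genes. The letters occurred in a window of 7 of these 8 members, Ifi209 being the exception, and also in windows of Ifi214 and Mndal. Of all 32851 RefSeq promoter windows, 3.44% held them. A further pair of motifs were searched in the same way, and none of the 8 members held either: TTCNNNGAA, the GAS element of interferon-gamma responses, was in 8.30% of all windows, and GAGGAAGT, the core bound by the myeloid factor PU.1, in 3.20%.

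The stretches around the site are shown because the site begins between positions -134 and -35 from a start in each gene and because the copies resemble each other. Each run has 50 bases, read 5′ to 3′ on the gene's own strand, with the 10 bases at the site in capitals.
Ifi206, chr1:173491329-173491378, minus strand: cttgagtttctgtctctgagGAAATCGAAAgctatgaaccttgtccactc
Ifi213, chr1:173599316-173599365, minus strand: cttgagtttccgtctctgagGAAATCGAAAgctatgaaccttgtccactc
Ifi208, chr1:173673587-173673636, plus strand: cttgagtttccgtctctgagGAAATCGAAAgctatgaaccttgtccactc
Ifi209, chr1:173630760-173630809, plus strand: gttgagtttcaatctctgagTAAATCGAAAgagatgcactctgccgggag
Ifi214, chr1:173536007-173536056, minus strand: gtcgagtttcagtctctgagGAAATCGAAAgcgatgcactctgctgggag
Ifi207, chr1:173741821-173741870, minus strand: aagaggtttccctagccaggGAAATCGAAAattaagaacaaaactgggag
Ifi211, chr1:173913054-173913103, minus strand: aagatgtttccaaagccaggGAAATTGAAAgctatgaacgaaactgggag
Ifi205, chr1:174031860-174031909, minus strand: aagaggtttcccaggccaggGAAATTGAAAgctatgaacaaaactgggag
Ifi203, chr1:173942498-173942547, minus strand: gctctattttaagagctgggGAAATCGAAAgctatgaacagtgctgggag
Mndal, chr1:173880194-173880243, minus strand: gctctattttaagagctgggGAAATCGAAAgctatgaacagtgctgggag

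The runs fell into 4 kinds. Those of Ifi213 and Ifi208 were identical over all 50 bases, and that of Ifi206 matched each of them at 49. Ifi209 and Ifi214 matched at 45. Ifi211 and Ifi205 matched at 46, and Ifi207 matched them at 42 and 44. Ifi203 and Mndal were identical over all 50. Counted from the first base of GAAATCGAAA, the run of Ifi209 carried G1T, which takes it out of the search, while Ifi211 and Ifi205 carried C6T, which the search allows. Exactly GAAATCGAAA was present in 16 of all 32851 windows (0.0487%), of which 7 belonged to PYHIN genes. That exact search was chosen after the windows had been read. Of the other 9 genes 7 were tested for expression. With LPS in control mice 2 of them were called higher, where 4.68% of all genes were. Gm26797 had a log2 fold change of 3.29 (limma adjusted p = 0.00106) and the RNA sensor gene Ddx58 of 0.87 (limma adjusted p = 0.00421). Pnrc1 fell by 0.57 (limma adjusted p = 0.0396). A match in these windows is a description and not a measured binding site.

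**Figure D1:**
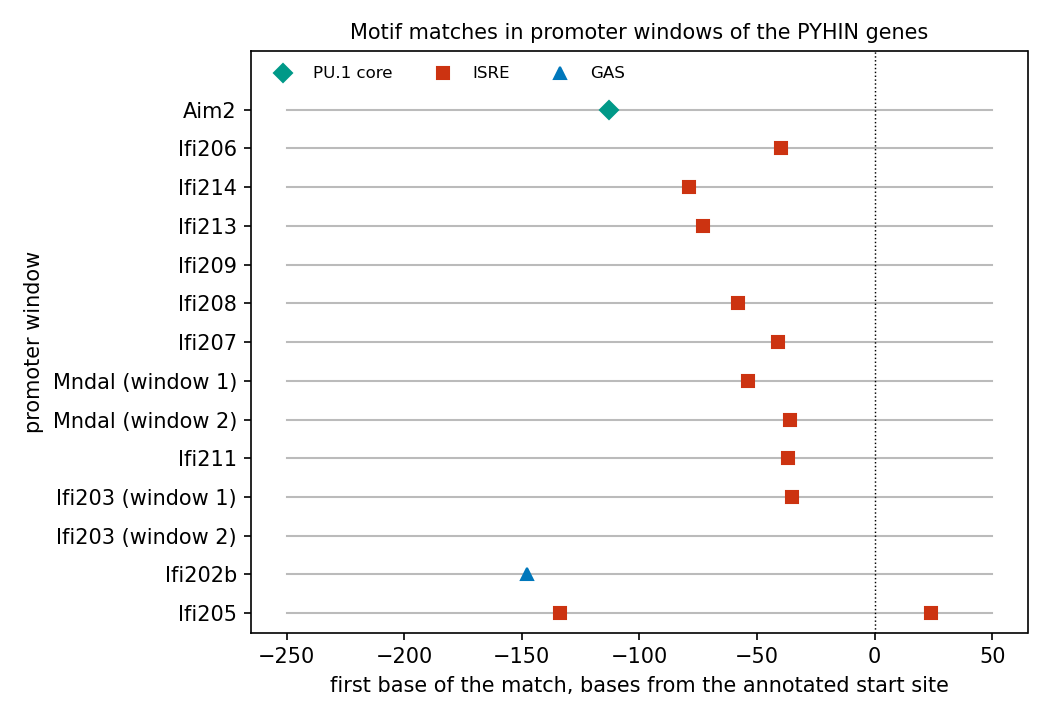
Positions of motif matches in 14 RefSeq promoter windows of 12 PYHIN genes, in bases from the annotated start (dotted line). Red squares mark the ISRE letters, the blue triangle TTCNNNGAA and the green diamond GAGGAAGT. All squares lie between -79 and -35, apart from Ifi205, whose squares lie at -134 and 24.

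How the family responded to LPS in control mice was asked first, with the saline libraries as the reference. Ifi204, Ifi206, Ifi209, Ifi213, Ifi208, Ifi207, Ifi211 and Ifi205 rose, from 5.81-fold to 15.9-fold. Ifi203 did not pass the test at 1.52-fold, and the pseudogene Ifi203-ps stood at 0.96 times its saline level. Thus 8 of the 10 members were called higher and none lower by limma on log2(value + 1) with Benjamini-Hochberg adjustment over all genes, where 4.68% of the 16575 genes tested were called higher. The median log2 fold change was 2.90 over the members and 0.02 over all genes. In 9 of the 10 every control LPS library lay above every saline library, which held for 13.4% of all genes. Both counts include Ifi205, which passed the filter through its LPS libraries alone, so its rise follows in part from the filter. Among the other called members the lowest saline mean was 12.8, in Ifi208. On reads recovered from the table, edgeR called 7 members and DESeq2 called 9. Of all genes they called 5% and 9.92%, counted in either direction, unlike the limma share above. In bulk RNA, a change in the number of cells of a type and a change in RNA per cell cannot be told apart.

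Ifi204 (chr1:173747293-173767069) gave normalized counts of 235, 259 and 366 after saline. After LPS the counts were 2911, 4775 and 4007 for control mice, and 2537, 2700.0 and 4789 for the knockouts. The LPS libraries of either genotype all lay above the saline ones, and the ranges of the LPS groups overlapped. In control mice the level rose from 287 ± 69.6 to 3898 ± 937 (SD, n = 3 each), a log2 fold change of 3.76 (SE 0.28, limma adjusted p = 0.000327).

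Ifi206 (chr1:173468485-173491318) had the largest fitted fold change among the members. Its normalized counts were 23.7, 31.9 and 16.0 in saline, then 342, 462 and 352 in control mice and 186, 253 and 364 in knockouts given LPS. Control mice rose 15.9-fold (SE 0.34 on the log2 scale, limma adjusted p = 0.00055), and no LPS library came near the saline range. Ifi213 (chr1:173566280-173599348), whose run around the site was all but the same, was at 81.9, 104 and 93.1 in saline. Control LPS libraries held 652, 583 and 711, and cKO LPS libraries 483, 583 and 771. Its control LPS libraries lay closer together than those of Ifi204, and its log2 fold change was 2.79 (SE 0.21, limma adjusted p = 0.000327). Ifi208 (chr1:173673628-173698393) was read at 9.87, 12.5 and 16.0 in saline, with 65.7, 160.3 and 119 under LPS in control mice and 62.7, 92.1 and 116 in knockouts. It rose 8.02-fold in control mice (limma adjusted p = 0.00517). RefSeq lists Pydc3 and Pydc4 among the older names of Ifi208 and Ifi213.

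Ifi209 (chr1:173630859-173647928), listed in RefSeq also as Pyhin1, was the called member without the ISRE letters in its window. Saline libraries held 123, 197 and 173 normalized counts of it, control LPS libraries 1158, 1855 and 1584, and cKO LPS libraries 985, 969.6 and 1600.2. The log2 fold change in control mice was 3.21 (SE 0.27, limma adjusted p = 0.000527), between those of Ifi208 and Ifi206, which hold them.

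Ifi207, Ifi211 and Ifi205 share the third kind of run. Ifi207 (chr1:173723424-173741831), whose product has been linked to cytokine transcription in macrophages, went from 392, 297 and 574 in saline to 1763, 3504 and 2129 under LPS in control mice and to 1535, 1458 and 3109.6 in knockouts. Control LPS library 2 and cKO LPS library 3 were its highest. The log2 fold change was 2.54 (SE 0.37, limma adjusted p = 0.00596). Ifi211 (chr1:173896339-173913087) likewise had its highest values in these 2 libraries of their groups, with 44.4, 24.9 and 64.2 in saline, 194, 407 and 270.3 under LPS in control mice, and 172, 175 and 292 in knockouts. It had a log2 fold change of 2.71 (limma adjusted p = 0.00752).

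Ifi205 (chr1:174011998-174031755), whose protein has been reported to keep up expression of the inflammasome adaptor Pycard in macrophages, was nearly silent in saline, with 4.94, 0 and 6.42 normalized counts or 7 reads in all. Under LPS it reached 23.1, 70.2 and 41.4 in control mice, and 19.5, 44.9 and 70.0 in knockouts. The log2 fold change in control mice was 3.56, with the widest error of the members (SE 0.84, limma adjusted p = 0.0409). The call was lost when any single library other than control LPS library 1 was left out (adjusted p up to 0.160), and the value became 2.65 without saline library 2. The authors' deposited table gave it an adjusted p of 0.000835, the same value as DESeq2 on the recovered reads.

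Ifi203 (chr1:173920400-173942866) was the flattest of the coding members. Its saline values were 241, 242 and 244 normalized counts, against 393, 336 and 378 under LPS in control mice and 324, 330.3 and 384 in knockouts. The groups did not overlap, yet the log2 fold change of 0.60 (SE 0.16) had a limma adjusted p of 0.0630. The authors' deposited table called Ifi203 higher with an adjusted p of 0.00504, as it did 7.75% of its genes. DESeq2 on the recovered reads gave the same value, so it is not a separate line of evidence. Ifi203-ps (chr1:173774452-173802755) gave 39.5, 27.7 and 28.9 in saline and 49.7, 31.8 and 17.5 in control LPS, with overlapping groups and a log2 fold change of -0.06 (95% interval -1.05 to 0.94). Mndal, with the same 50 bases around the site as Ifi203, rose from 177 ± 13.3 to 346 ± 16.9 (log2 fold change 0.96, limma adjusted p = 0.0117). The identical 10 bases GAAATCGAAA thus stood before genes with fold changes from 1.52 (Ifi203) and 1.95 (Mndal) to 15.9 (Ifi206).

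**Figure D2:**
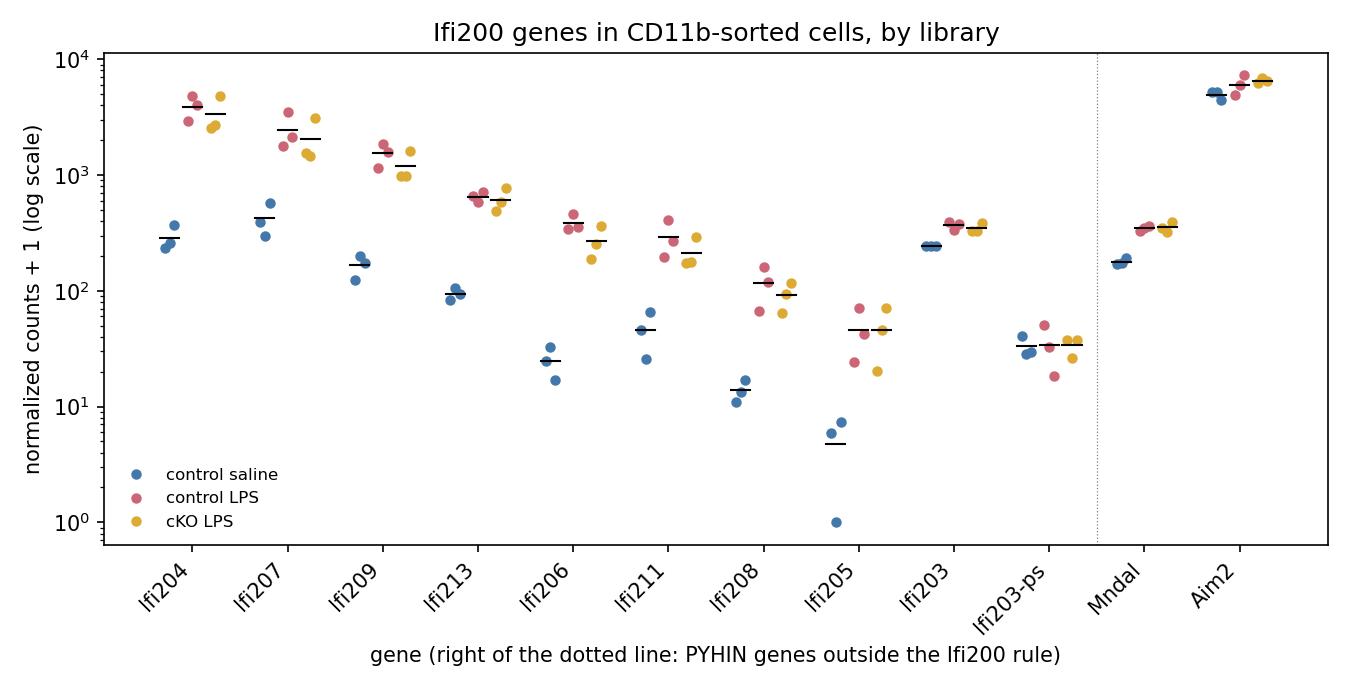
Normalized counts plus 1 on a log axis for the 10 members and for Mndal and Aim2, with 1 point per library, grouped as control saline (blue), control LPS (red) and cKO LPS (yellow); black bars are means of 3. The 8 called genes separate from saline after LPS, while Ifi203-ps does not and Aim2 overlaps in control LPS.

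The gene just below the mean of 10, Ifi214 (chr1:173521311-173535957), gave 2 reads over the saline libraries, 45 over control LPS and 23 over cKO LPS. After scaling, control LPS to saline was a ratio of 12.9 (exact 95% interval 3.37 to 110, counting error only). Its normalized counts were 10.7, 11.8 and 15.6 under LPS in control mice, against 8.65, 4.89 and 3.82 in knockouts, groups that did not overlap, and cKO LPS to control LPS was a ratio of 0.405 (0.234 to 0.683). Fitted without the filter on low values, that difference was -1.06 on the log2 scale (SE 0.62, limma adjusted p = 0.9999). Aim2, the first gene of the cluster, was per kilobase the most abundant PYHIN gene already in saline, with 5191, 5207 and 4454 normalized counts against 4915, 5934 and 7252 in control LPS (log2 fold change 0.27, limma adjusted p = 0.382).

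Per kilobase of annotated exon, the order of levels in saline was Ifi207 (123 ± 41.3 normalized counts per kb), Ifi204 (80.5 ± 19.6), Ifi209 (46.4 ± 10.6), Ifi203 (36.1 ± 0.223) and Ifi211 (24.9, from 14.0 to 36.0), then Ifi213 at 13.6 and Ifi206, Ifi208 and Ifi205 lower still. The ranges of Ifi207 and Ifi204 overlapped, as did those of Ifi209, Ifi203 and Ifi211. In control LPS the order was Ifi204 (1095 ± 263 per kb), Ifi207 (720.4 ± 268), Ifi209 (432 ± 99.1), Ifi211 (163 ± 60.6) and Ifi206 (126 ± 21.9), then Ifi213 (94.8 ± 9.32) and Ifi203 (55.0 ± 4.42). There the ranges of Ifi204 and Ifi207, of Ifi207 and Ifi209 and of Ifi211 and Ifi206 overlapped. Of the length-scaled sum over the 9 coding members, Ifi204 made up 22.1% to 24.8% in saline and 38.9% to 42.4% in control LPS. The share of Ifi203 was 8.76% to 12.3% in saline and 1.45% to 2.86% in control LPS.

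The copies are alike enough for reads to be shared. Of the 100-base stretches in GENCODE M21 transcripts, 43.1% were unique to Ifi211, 37.2% being also in Ifi205 and 19.6% in Ifi204. For the other members the unique part ran from 83.1% for Ifi209, which shares 16.9% with Ifi214, to 99.2% for Ifi207. Read length and the handling of reads with several matches are not stated in the labels, so the values of Ifi211, Ifi205 and Ifi214 in particular are uncertain. In the authors' deposited tables the end positions of the 13 PYHIN genes equalled those of RefSeq, but the starts of Ifi203, Ifi204, Ifi205, Ifi207 and Mndal were given as 28323, 55499, 18675, 80567 and 97274, far outside the cluster. The stretch counted for these 5 genes is therefore uncertain, and so are their levels, and whether reads were lost or added was not tested.

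Genes around the cluster were read as well. Of the 7 other tested genes that lie in the cluster or nearest to it, Slamf8, Dusp23, 4933439K11Rik and Cadm3 before or at its first gene and Fmn2, Rgs7 and Fh1 after it, none was called in control LPS against saline, with adjusted p from 0.0522 for Slamf8 upward. Outside the cluster the nearest of them, Fmn2, lies 470 kb away.

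Genes that sense DNA or carry the interferon signal were read beside the family. Against the 4.68% of all genes called higher in control LPS, 5 of 31 tested DNA sensing genes rose (none fell): Zbp1, a sensor of unusual nucleic acids (log2 fold change 3.90), Irf7, the amplifier of interferon transcription (3.12), the kinase gene Ikbke (4.40), Samhd1, which degrades nucleotides (0.96), and Enpp1, which hydrolyses the messenger cGAMP (1.14). The DNA sensor gene Cgas stood at 741 and 838 normalized counts in saline and control LPS (adjusted p = 0.797), and its partner Sting1 at 15510 and 14360 (adjusted p = 0.874). Of 20 interferon signalling genes 6 rose and none fell, among them the receptor genes Ifnar1 (log2 fold change 0.76) and Ifngr2 (0.70), and Usp18, a brake on the receptor (2.29). The medians of the lists were 0.20 and 0.43 on the log2 scale, against 0.02 over all genes.

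Over the 9 libraries the genes most like each member were ranked by Pearson's r of log2 values among 12277 genes with a mean of at least 50, as a description in which all points share the libraries and the LPS difference. Nearest to Ifi204 were Zbp1 (r = 0.992), Lgals3bp and Dhx58, the last encoding a relative of the RNA sensors. Ifi209 had Dhx58 (0.992), and Ifi206 had the antiviral gene Mx1 (0.991). Nearest to Ifi207 were Chil3 (0.997) and Ms4a4c (0.989), which are monocyte markers, and Chil3 was also nearest to Ifi211 (0.991). Nearest to Ifi208 was the receptor gene Cd300lf (0.996), to Ifi213 the complement gene Cfb (0.988) and to Ifi203 the interferon-induced Xaf1 (0.972). Between members r ran from 0.83 to 0.99 for the 9 coding genes, and from -0.17 to 0.03 for Ifi203-ps against the rest.

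Markers of blood cells moved with the family. Of 11 monocyte markers 7 rose in control LPS, where 4.68% of all genes did, and their summed level was 8040, 6326 and 9203 in saline. It was 16858, 44256 and 22397 under LPS in control mice, and 22522, 14936 and 29533 in knockouts. Control LPS library 2 and cKO LPS library 3 were the highest of their groups in this sum. They were also the highest for Ifi204, Ifi205, Ifi206, Ifi207, Ifi208, Ifi209 and Ifi211. Ifi213 and Ifi203 were instead lowest of the control LPS group in library 2, at 583 and 336, though highest in cKO LPS library 3. These libraries also had the most reads of their groups, 52373652 and 86571481, and the part of depth was not tested. Much of the monocyte sum was Fn1 and F13a1, neither of them called, with means of 10340 and 3252 in cKO LPS. Within cKO LPS, Ccr2 was highest in library 3 (477, against 361 in library 2), but Ly6c2 in library 2 (188, against 168 in library 3). Of 12 neutrophil markers 10 rose, with sums of 39853, 49178 and 28972 in saline. They summed to 70139, 161857 and 118333 in the control LPS libraries and to 69900, 94816 and 52718 in the knockouts. In this sum cKO LPS library 3, the highest of its group for every member, was the lowest. Most of the sum, however, was Csf3r, which was not called. Its means were 38240 in saline, 63240 in control LPS and 56950 in cKO LPS. S100a8 stood at 2156, 4969 and 4630 in the cKO LPS libraries and Ly6g at 62.7, 126 and 64.5, both lowest in library 1. None of the 12 homeostatic microglia markers was called, with sums from 1054640 to 1266710 in control LPS against 1230590 to 1778740 in saline. Of the defining markers, Ly6g was at 0 in saline library 1 and 48.8 to 312 in control LPS, and Ccr2 was above 0 in every library, lowest at 145 in saline library 2. The part of these cells in the rise was not tested. Without control LPS library 1, the library with astrocyte transcripts, the log2 fold changes were 3.95 for Ifi204, 4.08 for Ifi206, 3.40 for Ifi209 and 2.75 for Ifi207, and 8 members were called.

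**Figure D3:**
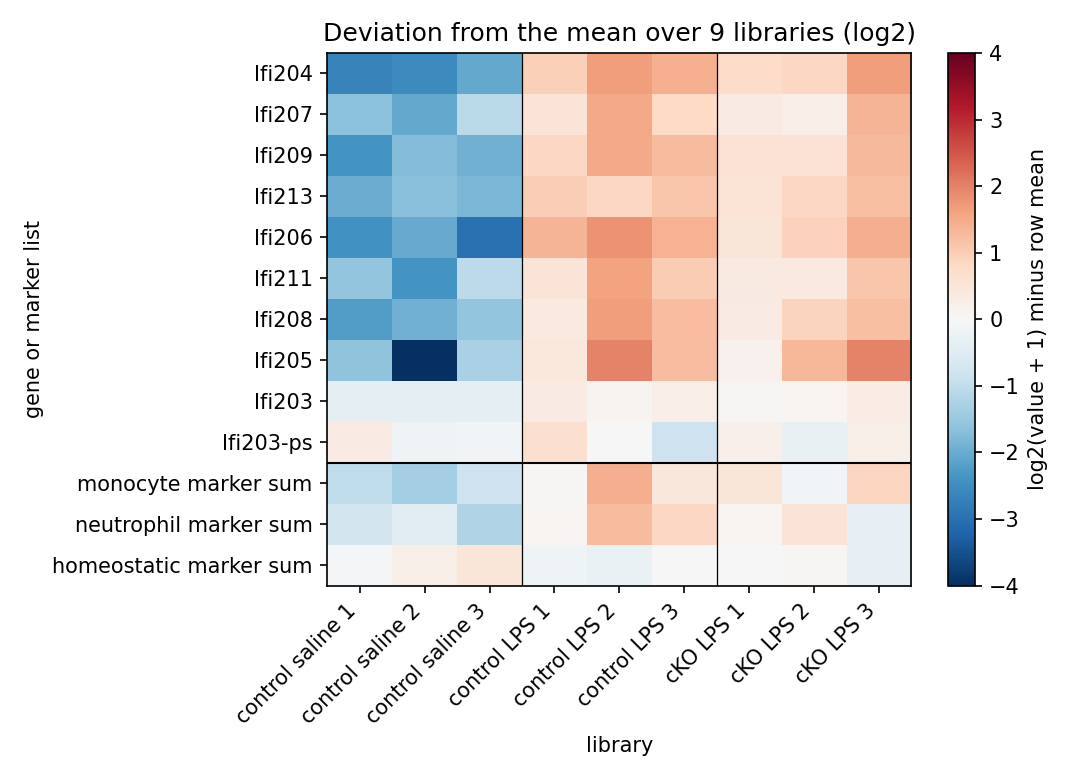
Deviation of each member from its mean over the 9 libraries, on the log2(value + 1) scale (red above, blue below), with the summed monocyte, neutrophil and homeostatic markers in the lower rows. Control LPS library 2 and cKO LPS library 3 are the darkest red for Ifi207 and Ifi211, the row of Ifi203 stays pale, and that of Ifi203-ps does not follow the groups.

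A further comparison, between the genotypes given LPS, asks whether loss of Chd8 in astrocytes altered the family in CD11b-sorted cells under LPS. No member was called by limma, edgeR or DESeq2, and none had an unadjusted p under 0.05 with limma. Over all genes limma and edgeR called 0% and DESeq2 called 0.0176%, and limma gave 263 genes an unadjusted p under 0.05. The groups overlapped for all 10 members, while 5.01% of all genes had groups apart. The fitted change was below 0 for the 9 coding members, while 45.75% of all genes had a change above 0. The median was -0.28 over the 10 members against -0.02 over all genes. Neutrophil markers lay below control LPS as well, with a median of -1.23 over 12 genes, none of them called, and T and NK cell markers had a median of -0.55. The monocyte markers had a median of -0.10. The part of these cells in the difference was not tested. Since the members follow the same libraries, these signs are not independent of each other.

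The widest difference was in Ifi206, at 385 ± 66.8 in control LPS and 268 ± 90.0 in cKO LPS (log2 fold change -0.57, 95% interval -1.32 to 0.19, limma adjusted p = 0.9999). For Ifi204 the interval ran from -0.89 to 0.39 around -0.25, for Ifi209 from -0.99 to 0.22 around -0.38, and for Ifi213 from -0.57 to 0.36 around -0.10. Ifi203 had the narrowest, from -0.45 to 0.26 around -0.09, and Ifi205 the widest, from -1.93 to 1.84. With a single library left out, the value of Ifi204 ran from -0.54 to -0.09, that of Ifi207 from -0.66 to -0.02 and that of Ifi208 from -0.65 to -0.01, with no member called in any such fit. Without control LPS library 1 they were -0.45 for Ifi204, -0.52 for Ifi207, -0.65 for Ifi208, -0.57 for Ifi209, -0.64 for Ifi206 and -0.68 for Ifi211. Differences inside the 95% intervals could not be resolved with 3 libraries a group. None of the 31 DNA sensing or 20 interferon signalling genes was called. Chd8 itself stood at 5507, 5408 and 5842 in control mice, against 5214, 6219 and 5453 in knockouts, but the deletion was made in astrocytes, so a level in CD11b-sorted cells does not check the labels. Astrocyte transcripts were high in control LPS library 1 alone, with a summed level of 98281 over 10 markers there and 5328 to 9735 elsewhere.

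The cKO LPS libraries were also set against control saline, so these values share the saline libraries with those of control mice. Of the 10 members 8 were called higher, where 5.41% of all genes were, and 9 had groups apart and higher, where 17.9% of all genes did. Both counts again include Ifi205, which passed the filter through its LPS libraries alone. Here edgeR called 7 members (5.51% of all genes in either direction) and DESeq2 called 9 (12.2% in either direction). The log2 fold changes were 3.50 for Ifi204, 3.43 for Ifi206, 2.83 for Ifi209, 2.71 for Ifi208, 2.69 for Ifi213, 2.29 for Ifi211, 2.23 for Ifi207 and 3.52 for Ifi205, with limma adjusted p from 0.000452 to 0.0382. Ifi203 was again not called at 0.51 (adjusted p = 0.0963), and Ifi203-ps was at 0.04. The share of Ifi204 in the length-scaled sum was 41.1% to 42.1%, above its saline range. Ifi211 lost its call without cKO LPS library 3 (2.04, adjusted p = 0.0563), and Ifi205 lost it without any of 6 libraries (adjusted p up to 0.142).

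**Figure D4:**
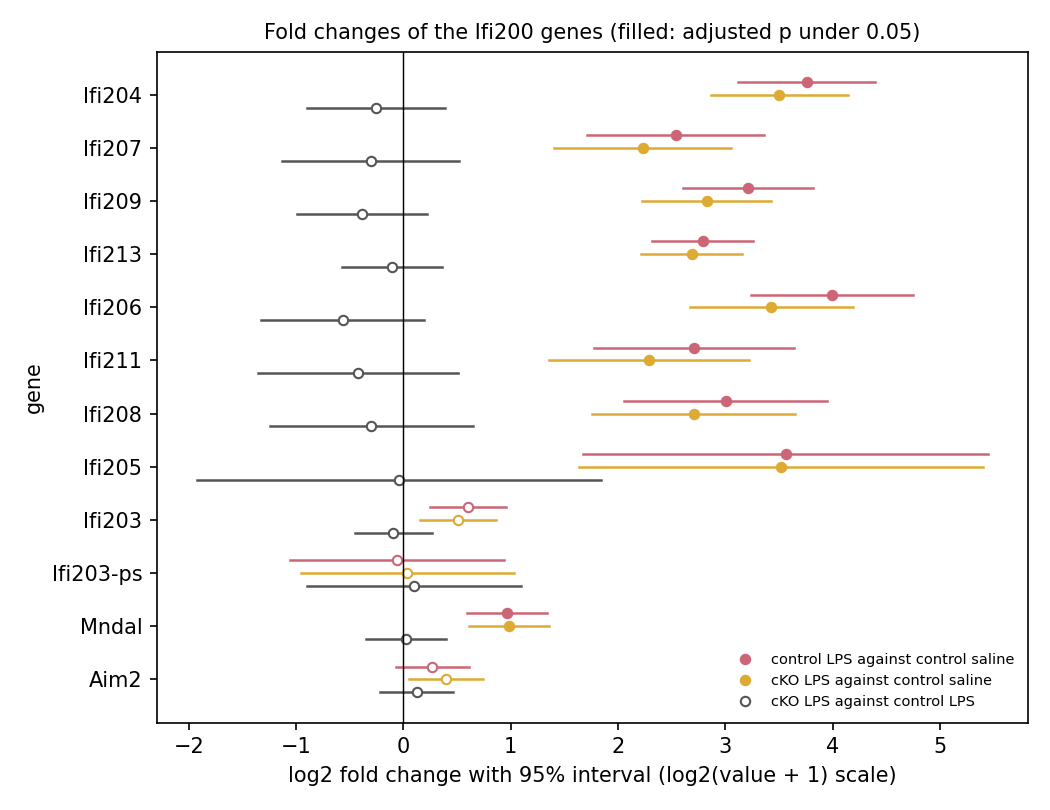
Log2 fold changes with 95% intervals from limma for the 10 members, Mndal and Aim2, in 3 comparisons; filled circles have an adjusted p under 0.05. The red and yellow circles of 8 members lie above 2, and every grey interval of cKO LPS against control LPS spans 0.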

How the data were processed

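The deposited main table holds a normalized signal per gene (23134 genes, 9 libraries), which is the read count over a library size factor. The authors also deposited tables of log2 fold changes and adjusted p-values from their own comparisons. Build mm10, the aligner STAR, the counters featureCounts and RSEM, and edgeR 3.30.3, DESeq2, Trimmomatic, FastQC and MultiQC 1.12 are named, without roles, per the submitters' processing notes. Values were whole multiples of 1 step per library within 0.01 of a read (100% of values), which gave 10845937 to 86571481 reads per library, fewest in saline. Intervals from reads cover counting error only.

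Genes with a mean of at least 10 (16575) entered a single limma-trend fit of 3 groups on log2(value + 1), with limma 3.58.1 under R 4.3.3, with a threshold of 0.05 on adjusted p. This scale understates changes of low genes. The alternatives used edgeR 4.0.16 and DESeq2 1.42.0 on recovered reads, other pseudocounts, filters, scalings and weights, a replicate block, and each library left out. The code was tested on simulated data.

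Named genes were the members, the other PYHIN genes, genomic neighbours, the called genes of the lists, the genes most alike in pattern and Chd8. Members, lists and motifs were chosen with earlier results of these data known. Start sites, positions and promoters came from RefSeq GRCm38.p6, exon lengths and transcripts from GENCODE M21. No protein was analysed here.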

Additional observations from a re-analysis of the deposited data

How the results depend on the processing

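Ifi204, Ifi206, Ifi207, Ifi208, Ifi209, Ifi211 and Ifi213 kept their direction and their call in 279 of 280 alternative fits of the LPS comparisons; the exception was Ifi211 without cKO LPS library 3. Of the 10 members, 7 to 9 were called for control LPS and 6 to 9 for cKO LPS against saline. Ifi205 lost its call for control LPS with a pseudocount of 0.5 (3.95), on the 2 groups alone (3.56), with quantile normalization (3.18), with edgeR (3.67) and under the replicate block (3.56, adjusted p = 0.0503), and for cKO LPS with edgeR (3.68). Leaving out libraries gave 2.65 to 4.10 and 2.61 to 4.06, and 1.93 to 2.60 for Ifi211 in cKO LPS. Ifi203 gained a call for control LPS with a mean of at least 50 (0.60), array weights (0.59) and DESeq2 (0.61), and for cKO LPS with array weights (0.47) and DESeq2 (0.52). The cause was not tested.

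Signs turned for uncalled values. Ifi203-ps in control LPS became 0.025 with edgeR and 0.023 with DESeq2 (-0.41 to 0.32 without a library), and in cKO LPS against saline -0.16 with array weights (-0.054 to 0.21 without a library). For cKO LPS against control LPS, Ifi205 became 0.083 with quantile normalization, 0.012 with edgeR and 0.0056 with DESeq2 (-0.45 to 0.45 without a library), Ifi203-ps ran from -0.28 to 0.45 and Ifi213 from -0.28 to 0.052 without a library.

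The count of all genes called was 929 for control LPS against saline, 417 on the 2 groups alone, 2789 with array weights, 1770 with DESeq2 and 374 to 1826 without a library, namely 499, 418 or 562 when saline library 1, 2 or 3 was dropped and 1826, 387 or 374 for control LPS library 1, 2 or 3. For cKO LPS against saline it was 1131, 3182 with array weights, 2064 with DESeq2 and 490 to 1656 without a library, namely 639, 591 or 709 when saline library 1, 2 or 3 was dropped and 519, 588 or 490 for cKO LPS library 1, 2 or 3. For cKO LPS against control LPS it was 0, 1 on the 2 groups alone, 4 with DESeq2 and 0 to 1 without a library, the 1 call coming without saline library 3. Quantile normalization moved the median of all genes to -0.10 for control LPS against saline.

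Deviations of same-numbered libraries correlated over 0.1 in 7 of 9 pairs (-0.066 to 0.468), with all 3 pairs of saline and cKO LPS among them, and 8 of 9 libraries correlated best with their own number. For control LPS and saline 2 of 3 pairs passed, and the numbers were not treated as pairs. With the replicate block 926, 0 and 1286 genes were called, and 7, 0 and 8 members.

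Depth limits Ifi205 and Ifi214 most, at 7 and 2 reads over the saline libraries.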
